A study of Mus musculus with 30 samples.

Results

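The enzymes that write, copy and remove DNA methylation were followed in mouse epiblast stem cells (EpiSCs) and in definitive endoderm (DE) made from them. They were taken by name as Dnmt1, Uhrf1, Dnmt3a, Dnmt3b, Dnmt3l, Tet1, Tet2, Tet3 and Tdg, 9 of the 29555 genes in the RNA tables. ATAC-seq peaks, which are stretches of open chromatin, were assigned to them when they lay inside a gene or within 5 kb of either end. This gave 81 of 158917 peaks in the table of EpiSCs and DE, and 96 of 181059 in the table of EpiSCs from several strains.

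DNA methylation sits on cytosines that are followed by guanine (CpG). DNMT3A and DNMT3B place it on unmethylated DNA, DNMT3L helps them without being an enzyme itself, and DNMT1, guided by UHRF1, copies it onto the new strand after replication. TET1, TET2 and TET3 oxidise the methyl group, and TDG cuts out the oxidised bases so that base excision repair can restore plain cytosine. In the embryo the epiblast, the tissue that EpiSCs resemble, is where methylation is laid down again after implantation, and endoderm forms from it at gastrulation.

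B6 EpiSCs came from C57BL/6 mice, were grown on feeder cells in N2B27-based medium with Fgf2, ActivinA and the Wnt inhibitor NVP-TNKS656, and were at passage 5 to 10. DE was derived from such B6 cells, first with CHIR99201 and ActivinA for 16 h, then with ActivinA and LDN193189 for 24 h, and was sorted on magnetic beads for CXCR4. The labels give 46 h for the whole protocol, which is more than the sum of both steps. RNA was measured in 5 B6 EpiSC and 4 B6 DE libraries, in 3 PWK/PhJ, 3 B6.129 F1 and 1 DBA/2J EpiSC libraries, and accessibility in 4 B6 EpiSC, 4 B6 DE, 2 PWK and 1 DBA EpiSC libraries. Apart from their strain, the EpiSCs of the other strains carry the same growth label, with no treatment. The labels number biological replicates without saying whether a number is a cell line, a culture or a day, so p-values measure the spread between these libraries. All of them are bulk samples, in which fewer cells expressing a gene and less RNA per cell cannot be told apart.

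RNA libraries held 22829500 to 66563900 counts and ATAC-seq libraries 3751530 to 9571130 (all to 6 digits). Levels are CPM, a feature's counts on a fixed library total, after TMM scaling, which sets the libraries on a common scale. They are not divided by gene length. All 7 EpiSC markers averaged at least 1 CPM in every EpiSC group; in DE 5 of them were lower, with Sox2 under 1 CPM, and 2 higher (Otx2 and Fgf5), so that their sum was 2087 to 2365 CPM in DE and 2195 to 2910 CPM in EpiSCs. Markers of neuroectoderm summed to 334 to 753 CPM in EpiSCs, nearly all of it Nes, and to 5.36 to 19 CPM in DE, while Sox1, Zic1 and Hes5 averaged under 1 CPM in both, and their part in the results was not tested. The 8 tested definitive endoderm markers were all higher in DE, with a summed level of 5882 to 12620 CPM against 32.9 to 328 CPM in EpiSCs. Cxcr4 is 1 of these 8, and since DE was sorted on CXCR4 its rise is not independent of the sort. Markers of the feeder fibroblasts, all 10 of them detected, summed to 53.8 to 2481 CPM in B6 EpiSC libraries and to 63.7 to 238 CPM in DE, where Thy1, a fibroblast surface protein, had at most 3 counts per library. The part of feeder RNA in the differences was not tested. B6 EpiSC replicate 1, with the lowest feeder sum, had 297 CPM of Dnmt1, above every DE library, and 174 CPM of Dnmt3a and 270 CPM of Tet1, within the range of the other 4 EpiSC libraries. The RNA of DE replicates 2 and 44 was sequenced less deeply (22829500 and 25410400 counts) than that of replicates 4 and 51 (59995700 and 66563900), and the same numbers divide the libraries by a shorter or longer protocol text in the labels.

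In DE the RNA of 5 enzymes was lower than in EpiSCs, namely Dnmt1, Uhrf1, Dnmt3a, Tet1 and Tet3, and that of Tet2 and Tdg was higher. Dnmt3b did not pass the test, and Dnmt3l was too low to be tested. So many genes changed between these cell states that a call is common: 62% of the 14085 genes tested were called by edgeR's quasi-likelihood test at an adjusted p of 0.05, 31.5% higher and 30.6% lower. Of the 8 enzymes tested 7 were called, with a median log2 change of -0.72 beside -0.01 over all tested genes. For 6 of the 8 the libraries of the groups did not overlap, as for 55.6% of all tested genes. What follows is the size and the order of these changes.

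**Figure D1:**
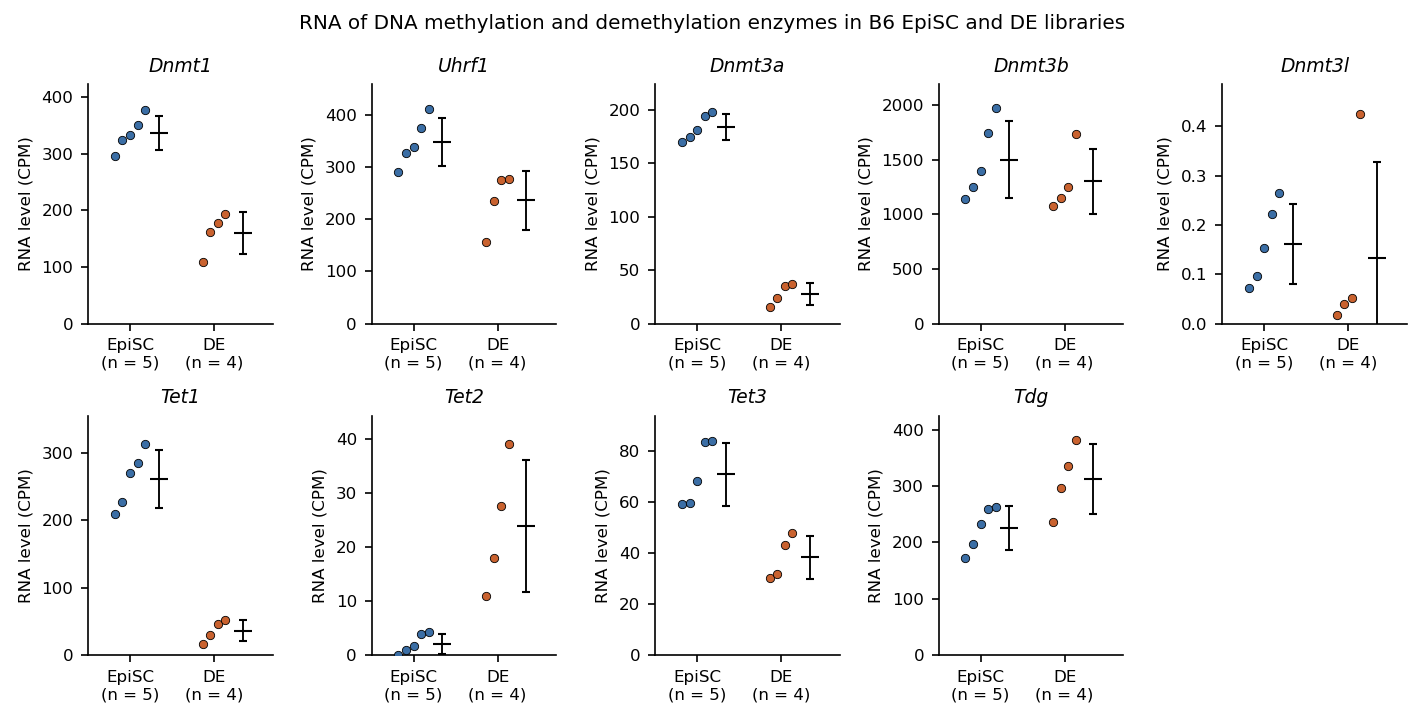
RNA level of each enzyme in CPM (vertical axes, each starting at 0) in the 5 B6 EpiSC and 4 B6 DE libraries; points are libraries and bars give the mean with its SD. Dnmt3a and Tet1 fall from EpiSC levels of 170 to 198 and 209 to 314 CPM to at most 37.2 and 51.7 CPM, Tet2 moves the other way, and Dnmt3b overlaps.

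Among the enzymes that place new methylation, Dnmt3a and Dnmt3b parted. Dnmt3a measured 174, 194, 198, 170 and 181 CPM in EpiSC replicates 1, 2, 4, 44 and 51, and 37.2, 23.7, 35.5 and 15.3 CPM in DE replicates 2, 4, 44 and 51. Every DE library was thus far under every EpiSC library, and the log2 change was -2.72 (SE 0.26, edgeR adjusted p = 1.11e-05). Dnmt3b, the most counted of the 9 genes, measured 1248, 1979, 1139, 1400 and 1745 CPM in EpiSCs and 1252, 1151, 1735 and 1073 CPM in DE. These ranges overlapped almost wholly, and the log2 change of -0.21 (SE 0.20, adjusted p = 0.403) has a 95% interval from -0.66 to 0.25. As a share of the counts of both genes, Dnmt3a took 11.2% ± 2.38 (SD, n = 5) in EpiSCs and 2.08% ± 0.609 (n = 4) in DE. These are shares of counts, which depend on gene length in their size but not in the direction of the difference.

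Dnmt3l had 2 to 7 counts per EpiSC library and 1 to 28 per DE library, at most 0.42 CPM. The highest value, in DE replicate 51, came with 15 counts of its pseudogene Dnmt3l-ps1, which had none in any other library of that table.

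The pair that copies methylation at replication fell less. Dnmt1 measured 297, 378, 324, 350 and 333 CPM in EpiSCs and 108, 194, 162 and 179 CPM in DE, so the groups did not overlap (log2 change -1.07, SE 0.17, edgeR adjusted p = 0.000415). Uhrf1, which brings DNMT1 to hemimethylated sites, went from 291, 412, 327, 338 and 374 CPM to 157, 276, 235 and 276 CPM. Its change was smaller (log2 change -0.56, SE 0.19, adjusted p = 0.0221), and its highest DE libraries (276 CPM) came close to the lowest EpiSC library (291 CPM). Counts of Uhrf1 per count of Dnmt1 were 1.03 ± 0.069 in EpiSCs (SD, n = 5) and 1.47 ± 0.055 in DE (n = 4), without overlap. Both genes were lowest in DE replicate 2. The call of Uhrf1 was lost without EpiSC replicate 2 (-0.50, adjusted p = 0.0512). It was also lost within replicates 2 and 44 alone (-0.96, adjusted p = 0.0665) and within replicates 1, 4 and 51 alone (-0.27, adjusted p = 0.171).

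The promoters of these genes differed in their letters. RefSeq windows of 300 bases (250 before to 50 after an annotated start, build GRCm38.p6) were found for all 9 genes, 16 windows in all because some have several starts. The words TTTGGCGC and TTTCGCGC, forms of the site read by the E2F factors of S phase, were searched on both strands. They occurred in 2 of the 16 windows, 1 of Dnmt1 and 1 of Uhrf1, and in 0.813% of all 32841 windows. Both words contain CpG, and each of these 2 windows holds 33 CpGs, where the median of all windows is 7. The share over all windows is therefore not matched for CpG content. Both windows are shown because they are where the copying enzymes differ from the other 7 genes, with the words or their reverse complement in capitals. The Dnmt1 window lies at chr9:20952574-20952873 on the minus strand and holds 1 of each word, and the Uhrf1 window lies at chr17:56304063-56304362 on the plus strand and holds TTTCGCGC.
Dnmt1: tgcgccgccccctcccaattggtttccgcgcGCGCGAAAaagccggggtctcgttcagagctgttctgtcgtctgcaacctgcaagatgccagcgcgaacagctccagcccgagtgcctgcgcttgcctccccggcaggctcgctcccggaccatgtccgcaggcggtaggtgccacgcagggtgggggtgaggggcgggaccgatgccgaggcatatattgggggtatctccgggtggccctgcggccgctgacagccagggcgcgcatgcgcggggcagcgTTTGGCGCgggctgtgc
Uhrf1: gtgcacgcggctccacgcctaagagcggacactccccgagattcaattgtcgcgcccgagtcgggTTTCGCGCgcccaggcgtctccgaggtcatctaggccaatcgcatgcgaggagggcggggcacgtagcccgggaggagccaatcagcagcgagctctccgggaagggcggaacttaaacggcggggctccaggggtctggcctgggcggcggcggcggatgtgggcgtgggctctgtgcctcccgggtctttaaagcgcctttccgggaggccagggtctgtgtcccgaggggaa
A match is a description of the letters only. The word CCAAT was present in 6 of the 16 windows and in 37.4% of all windows, and TATAAA in none of the 16 and in 13.6% of all.

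S-phase genes were set beside this pair. Of the 22 tested, 9 were called higher in DE and 2 called lower (median log2 change 0.13, beside -0.01 over all genes). Slbp, which binds histone mRNA, rose by 1.42 (SE 0.17) and Ccne2, a cyclin of the step into S phase, by 1.41 (SE 0.22) on the log2 scale. Tk1, the salvage kinase for thymidine, rose by 1.12 (SE 0.17), while Pola1, a subunit of the primase polymerase, fell by 1.26 (SE 0.23) and Mcm5, a part of the replicative helicase, fell by 1.25 (SE 0.28). Within replicates 2 and 44 alone Tk1 (0.94, adjusted p = 0.0623) was not called, and within replicates 1, 4 and 51 alone Mcm5 (-1.23, adjusted p = 0.0564) was not. Over all genes 31.5% were called higher and 30.6% lower. Dnmt1 and Uhrf1 were lower in DE, and S-phase genes moved in both directions, more of them higher than lower. The part of S phase in the fall of Dnmt1 and Uhrf1 was not tested.

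The TET genes moved in opposite directions. Tet1 measured 270, 314, 209, 285 and 227 CPM in EpiSC replicates 1, 2, 4, 44 and 51, and 17.1, 51.7, 29.3 and 45.7 CPM in DE replicates 2, 4, 44 and 51. Every DE library was far under the EpiSC minimum, and the log2 change was -2.86 (SE 0.31, edgeR adjusted p = 3.02e-05). Tet2 measured 0, 1.60, 0.902, 4.21 and 3.81 CPM in EpiSCs and 18.0, 27.6, 39.1 and 10.9 CPM in DE. The rise was large and uncertain in size (log2 change 3.50, SE 0.88, adjusted p = 0.00565), since the EpiSC libraries had only 0 to 130 counts. Within replicates 1, 4 and 51 alone it was 3.61 and not called (adjusted p = 0.0976). Tet3 measured 83.9, 59.0, 83.4, 59.5 and 68.0 CPM in EpiSCs and 30.2, 47.7, 31.8 and 43.1 CPM in DE, again without overlap (log2 change -0.89, SE 0.19, adjusted p = 0.00218).

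Of the counts of the 3 TET genes, Tet1 took 77.8% ± 5.0 in EpiSCs (SD, n = 5) and 35.5% ± 9.31 in DE (n = 4). Tet2 took 0.643% ± 0.567 and 24.8% ± 11.7, and Tet3 21.5% ± 5.18 and 39.7% ± 6.41. EpiSC libraries were thus alike in being mostly Tet1, whereas DE libraries held all 3 in unequal mixtures: Tet2 took from 11% in DE replicate 51 to 39.0% in replicate 44.

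The zero of Tet2 in EpiSC replicate 1 was not alone. Of the 12 EpiSC libraries of all strains, 4 had no Tet2 count and the other 8 had 25 to 274. A count of 0 allows up to 3 counts, which is 0.0995 to 0.124 CPM at these depths. Such all-or-none counts were rare: of 11600 genes with at least 100 counts in some B6 EpiSC library, 120 (1.03%) had 0 in another. How reads were assigned to genes is not given in the sources used here, so a Tet2 level in a single EpiSC library is uncertain.

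Tdg, the glycosylase that acts after the TET enzymes, measured 259, 198, 232, 173 and 262 CPM in EpiSC replicates 1, 2, 4, 44 and 51, and 236, 336, 297 and 382 CPM in DE replicates 2, 4, 44 and 51. The groups overlapped through DE replicate 2 (log2 change 0.48, SE 0.18, edgeR adjusted p = 0.0378). This call was lost with other scalings (0.43 and 0.40, adjusted p = 0.0568 and 0.106), with other filters (0.46 and 0.42, adjusted p = 0.0612 and 0.0593), within replicates 2 and 44 alone (0.50, adjusted p = 0.205), and without any one of DE replicates 4, 44 and 51 or EpiSC replicates 2, 4 and 44 (0.37 to 0.50). Tdg has 2 near-identical processed copies, Tdg-ps and Gm9855, and their counts differed between libraries of the same group. In EpiSC replicates 1, 4 and 51 Gm9855 had 0, 72 and 12 counts, and in replicates 2 and 44, where Tdg itself was lowest, it had 1536 and 1573. In DE it had 10 counts in replicate 51, where Tdg was highest, and 830, 1699 and 1780 in replicates 2, 4 and 44. Summed over Tdg and both copies, the EpiSC level was 253 ± 16.1 CPM (SD, n = 5) and the DE level 359 ± 42.2 CPM (n = 4), and these no longer overlapped (log2 change 0.51, SE 0.12, adjusted p = 0.00449). That call was lost under 1 of 19 alternatives, replicates 2 and 44 alone (0.40, adjusted p = 0.312). The sum was formed after the split had been seen.

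Accessibility near these genes changed in both directions. Of the 81 peaks 68 could be tested, and 15 were more and 22 less accessible in DE (12 and 28 when scaled by total library size), 54.4% of those tested beside 57.6% of all 113870 tested peaks (32.6% higher, 25.0% lower). For 32 of the 68 the groups did not overlap (47.1%, beside 53.8%). Of the 81 peaks 17 also lie inside another annotated gene. For Tet1 these were 7 of 12 peaks, for Dnmt3a 5 of 23 and for Dnmt3l 2 of 3. Tet3 had 2 of 11 and Uhrf1 had 1 of 5. Of the 14 tested peaks that overlap 500 bases on either side of an annotated start, 1 was called (7.14%), and of the other 54 peaks 36 were (66.7%). Over all genes 28.1% of 16308 tested start peaks and 62.5% of 97562 other peaks were called. For Tet2 and Tet3 only 1 start each was used, at 133544390 and 83441678. Both genes extend beyond it, to 133545136 and 83457208, so peaks at those 5' ends do not count as start peaks. The called start peak covers the second start of Uhrf1 (chr17:56304094-56304353, the window printed above), with 18.9, 18.8, 20.4 and 22.9 CPM in EpiSC replicates 1, 4, 44 and 51 and 35.8, 29.5, 22.6 and 23.3 CPM in DE replicates 2, 4, 44 and 51. This is a small rise with overlapping libraries (log2 change 0.46, SE 0.18, adjusted p = 0.0334), while Uhrf1 RNA fell. The call was lost under 10 of 15 alternatives, among them leaving out DE replicate 2, the highest library (0.20, adjusted p = 0.354).

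**Figure D2:**
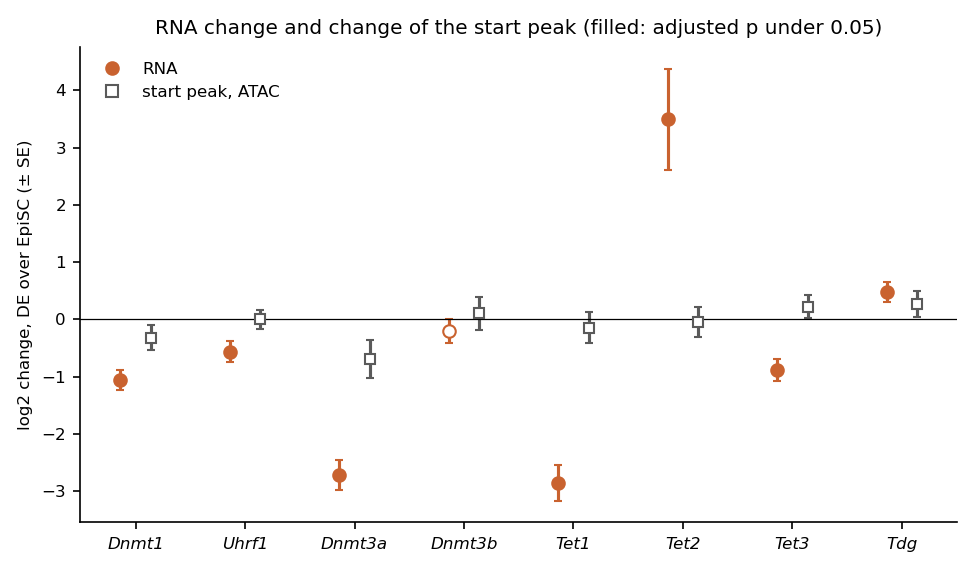
Log2 change from EpiSC to DE (vertical axis, bars are SE) of the RNA (circles) and of the most accessible peak at a start (squares) for the 8 genes with both; filled symbols have an adjusted p under 0.05. RNA changes run from -2.86 to 3.50, while every plotted start peak lies between -0.69 and 0.27. Dnmt3a is plotted at its internal start, and the genes of Tet2 and Tet3 extend beyond the starts used.

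The start peaks of the genes that changed most in RNA show this plainly. At the Tet1 start (chr10:62887354-62887545) accessibility was 6.24, 9.42, 13.8 and 13.5 CPM in EpiSCs and 8.64, 7.57, 11.3 and 11 CPM in DE (log2 change -0.15, SE 0.27, adjusted p = 0.669). At the Tet2 start (chr3:133544185-133544430) it was 10.9, 15.3, 8.93 and 20.3 CPM in EpiSCs and 11.1, 13.8, 18.5 and 10.1 CPM in DE (log2 change -0.05, SE 0.26, adjusted p = 0.884). Both of these starts were therefore open in both cell states, with that of Tet2 accessible in EpiSCs that held almost none of its RNA. A Tet2 peak nearer the gene's 5' end did rise and is given below. The 95% intervals of these peaks were -0.72 to 0.42 for Tet1 and -0.59 to 0.49 for Tet2. Those of the RNA were -3.55 to -2.16 and 1.54 to 5.46. Accessibility and RNA are different measures, so their changes need not match in size. The Dnmt1 start peak (log2 change -0.32, SE 0.22, adjusted p = 0.210) and the Dnmt3b start peak (0.10, SE 0.29, adjusted p = 0.777) were not called. Dnmt3a had a peak at its internal start (chr12:3891808-3891941), from which the shorter DNMT3A2 form is made, of 6.15 ± 1.65 CPM in EpiSCs and 3.89 ± 0.994 CPM in DE (SD, n = 4 each), not called either (log2 change -0.69, SE 0.33, adjusted p = 0.0831). Its upstream starts, at 3806980 and 3807160, had no peak in the comparison of EpiSCs and DE, so accessibility there was not compared. Scaled by total library size, which lowers all peaks by 0.22 on the log2 scale (median), the start peaks of Dnmt1 (-0.54, adjusted p = 0.0301) and Dnmt3a (-0.91, adjusted p = 0.0240) were called lower. Leaving out single libraries also gave such calls: the Dnmt1 start peak without EpiSC replicate 1 (-0.57, adjusted p = 0.0258) or DE replicate 4 (-0.56, adjusted p = 0.0444), and the Dnmt3a start peak without DE replicate 2 or EpiSC replicates 44 or 51 (-0.94 to -0.89, adjusted p = 0.0239 to 0.0387).

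Most windows of these starts are rich in CpG, the sequence that the enzymes act on. Those of Tet2, Tet1 and Dnmt3b are shown with CpG in capitals because they belong to the enzymes whose RNA rose most, fell most and did not pass the test. The Tet2 window (chr3:133544341-133544640, minus strand) holds 57 CpGs, more than 99.8% of all windows, that of Dnmt3b (chr2:153649199-153649498, plus strand) holds 30, and that of Tet1 (chr10:62887275-62887574, minus strand) holds 17. The median over all windows is 7.
Tet2: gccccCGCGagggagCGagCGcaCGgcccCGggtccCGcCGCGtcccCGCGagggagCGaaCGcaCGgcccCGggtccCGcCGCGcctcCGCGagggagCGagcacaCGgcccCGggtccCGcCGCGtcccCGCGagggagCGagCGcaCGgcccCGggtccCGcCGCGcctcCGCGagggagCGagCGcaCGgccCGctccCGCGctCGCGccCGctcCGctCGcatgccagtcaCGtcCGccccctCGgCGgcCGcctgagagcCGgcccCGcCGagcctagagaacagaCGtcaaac
Dnmt3b: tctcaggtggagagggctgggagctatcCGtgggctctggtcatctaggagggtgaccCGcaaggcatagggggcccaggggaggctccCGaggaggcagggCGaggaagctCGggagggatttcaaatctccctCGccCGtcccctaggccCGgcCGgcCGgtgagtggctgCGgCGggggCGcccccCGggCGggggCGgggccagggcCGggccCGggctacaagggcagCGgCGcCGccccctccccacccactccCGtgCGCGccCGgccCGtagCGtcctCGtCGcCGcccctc
Tet1: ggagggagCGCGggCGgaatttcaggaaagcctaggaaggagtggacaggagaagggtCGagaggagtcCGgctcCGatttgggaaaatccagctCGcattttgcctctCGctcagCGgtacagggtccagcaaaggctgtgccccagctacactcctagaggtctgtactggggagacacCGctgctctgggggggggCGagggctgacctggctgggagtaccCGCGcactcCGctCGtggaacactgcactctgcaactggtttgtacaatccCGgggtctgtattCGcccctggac
Windows of the 9 genes ranged from 2 CpGs, at the upstream start of Dnmt1, to 57, and 12 of the 16 were above the median of all windows. The 3 windows of Dnmt3l held 3 to 6.

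Away from the starts the peaks moved with, or against, the RNA in a way that differed by gene. Tet1 had 10 tested peaks, of which 4 were lower and none higher. The largest fall was inside the gene, 36120 bases from its start (chr10:62851069-62851340): 9.92, 8.01, 12.8 and 9.30 CPM in EpiSC replicates 1, 4, 44 and 51 became 0.823, 0.494, 0.286 and 0.577 CPM in DE replicates 2, 4, 44 and 51. This peak was nearly lost (log2 change -4.20, SE 0.42, edgeR adjusted p = 5.47e-08). The most accessible peak of the gene, 21890 bases from the start, fell only from 71.8 ± 7.77 to 52.6 ± 3.87 CPM.

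Tet2 had 7 tested peaks, of which 5 were higher and none lower. The largest rise lay near the 3' end of the gene, 78794 bases from its start (chr3:133465438-133465754), from 2.24, 3.51, 3.06 and 0.620 CPM in EpiSCs to 32.1, 32.9, 28.8 and 21.6 CPM in DE. The groups were far apart (log2 change 3.59, SE 0.31, adjusted p = 1.13e-08). A peak 44827 bases from the start rose from 1.5 ± 1.31 to 10.5 ± 2.81 CPM (SD, n = 4 each). Another, 618 bases before the start used here, rose from 5.74 ± 1.15 to 14.8 ± 4.27 CPM. It begins at 133544907 and lies inside the gene, whose annotated 5' end is at 133545136. The peak at the start used here did not pass the test.

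**Figure D3:**
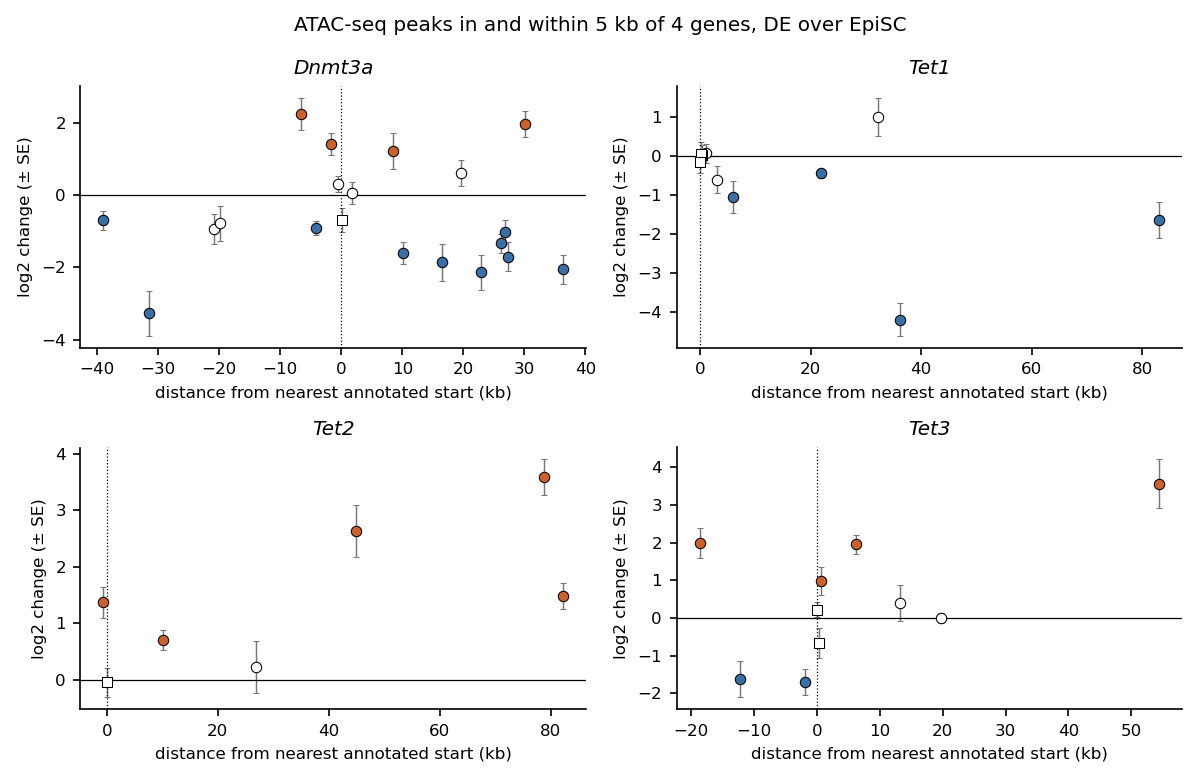
Log2 change of accessibility from EpiSC to DE (vertical axis, bars are SE) against the distance of each tested peak from the nearest annotated start in kb, for 4 genes; squares overlap a start, orange and blue points were called higher and lower, white points were not called. Called Tet1 peaks are all lower and called Tet2 peaks all higher, while Dnmt3a and Tet3 hold both kinds.

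Dnmt3a had 20 tested peaks, the most of the 9 genes, of which 10 were lower and 4 higher. The largest fall (chr12:3860107-3860269, inside the gene and inside the overlapping RNA gene Dnmt3aos) went from 4.8 ± 2.01 to 0.504 ± 0.353 CPM (log2 change -3.27, SE 0.61). The largest rise (chr12:3884995-3885124), 6684 bases before the internal start, went from 1.13 ± 0.340 to 5.52 ± 2.36 CPM (log2 change 2.24, SE 0.44). So a gene whose RNA fell 6.59-fold gained open sites beside those it lost. Tet3 RNA also fell, yet 4 of its 10 tested peaks were higher and 2 lower. Its largest rise, 54404 bases after the start used here, went from 0.376 ± 0.382 to 3.95 ± 0.982 CPM (log2 change 3.57, SE 0.64). Its largest fall, 1946 bases before that start, went from 12.4 ± 3.95 to 3.87 ± 1.57 CPM (log2 change -1.70, SE 0.34). That start (83441678) and the falling peak (from 83443513) both lie inside the gene, whose annotated 5' end is at 83457208.

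The others held few called peaks. Dnmt3b had 1 higher and 2 lower of 5 tested, the largest being a rise 846 bases after its start (log2 change 1.64, SE 0.41). Dnmt3l, with at most 28 counts of RNA in any library, had 3 tested peaks and all 3 were lower, the largest downstream of the gene (log2 change -2.10, SE 0.31). Dnmt1 had 1 lower of 7 (lost under 4 of 14 alternatives), Uhrf1 the start peak given above of 5, and Tdg had a single tested peak, at its start, which was not called (log2 change 0.27, SE 0.23, adjusted p = 0.312). A peak assigned by distance need not act on that gene.

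Most of the called partners of the enzymes were lower in DE. Of 6 genes that work with DNMT1 in copying methylation, 5 were lower in DE and 1 was higher (median log2 change -0.98). Usp7, which removes ubiquitin from DNMT1 and UHRF1, fell by 1.41 (SE 0.15), Cdca7 by 1.21 (SE 0.13) and Hells, the chromatin remodeller that CDCA7 recruits, by 1.18 (SE 0.18) on the log2 scale. Uhrf2, the relative of Uhrf1, was the exception (log2 change 0.66, SE 0.16), though not within replicates 2 and 44 alone (0.40, adjusted p = 0.272). Of 8 tested partners of the DNMT3 and TET proteins 5 were lower and none higher (median -0.61). Zfp57, which guards methylation at imprinted genes, fell by 1.29 (SE 0.21), and Trim28, its corepressor, by 0.97 (SE 0.20). Over all genes 30.6% were lower, and the 5 called of 8 DNMT3 and TET partners are close to the 62% of all genes called in either direction.

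**Figure D4:**
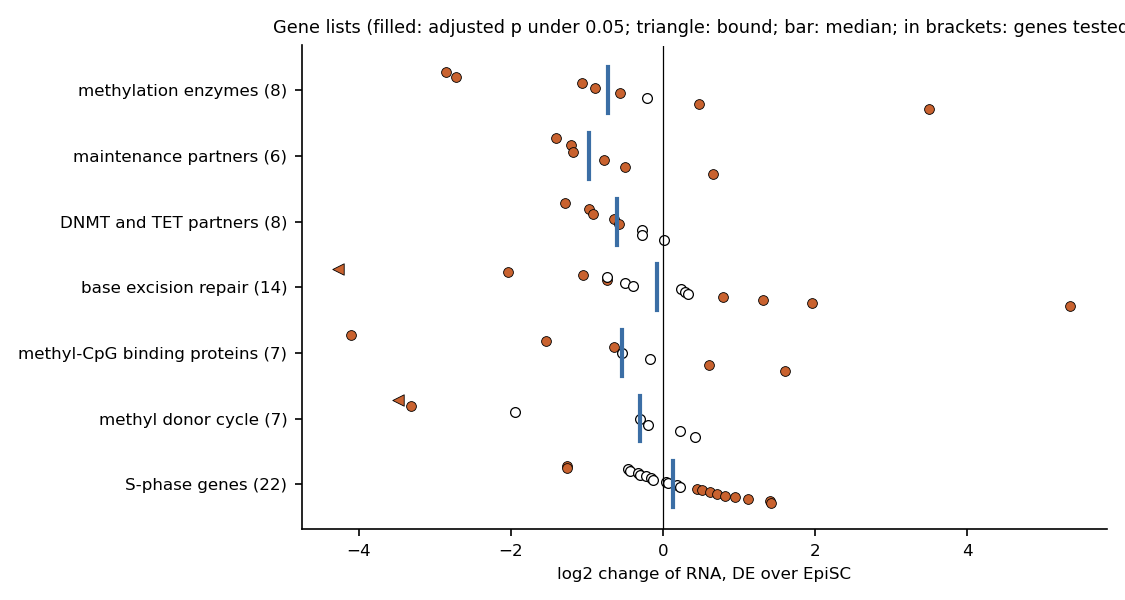
Log2 change of RNA from EpiSC to DE (horizontal axis) for each tested gene of 7 lists; filled points have an adjusted p under 0.05, blue bars are medians, and triangles mark Neil2 and Mat1a at the bound that 3 counts per DE library allow. Medians run from -0.98 for the DNMT1 partners to 0.13 for the S-phase genes.

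Genes listed for base excision repair moved in both directions: of 14 tested, 4 were higher and 4 lower (median -0.08, also with Neil2 at its bound). Genes as a whole did so too, with 31.5% called higher and 30.6% lower. Gadd45g, a stress-induced gene tied to repair-based demethylation, went from 1.13 ± 0.825 CPM in EpiSCs (SD, n = 5) to 46.5 ± 16.1 CPM in DE (n = 4), a log2 change of 5.36 (SE 0.51). Polb, the polymerase that fills the gap, rose by 1.32 (SE 0.18). Ung, the uracil glycosylase, fell by 2.04 (SE 0.33) and Parp1, the strand-break sensor, by 1.05 (SE 0.14). Neil2, a glycosylase, had no count in any of the 4 DE libraries and 1.76 ± 0.470 CPM in EpiSCs, so it was at least 19.2-fold lower, taking 3 counts per library as the floor.

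Among 7 proteins that bind methylated CpG, 2 were higher and 3 lower (median -0.53). Zbtb33, known as Kaiso, fell from 43.7 ± 2.58 to 2.53 ± 0.703 CPM (log2 change -4.09, SE 0.22), Zbtb4 fell by 1.54 (SE 0.37, but adjusted p = 0.0998 within replicates 2 and 44 alone), and Mbd3, a part of the NuRD complex, rose by 1.61 (SE 0.22). In the cycle that supplies the methyl donor, 2 of 7 tested genes were lower and none higher (median -0.30). Both lists stand beside 31.5% of all genes called higher and 30.6% called lower. Mtr, methionine synthase, fell from 84.5 ± 9.51 to 8.42 ± 3.81 CPM (log2 change -3.31, SE 0.31).

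Genes that are known targets of silencing by promoter methylation stayed near zero. None of 15 germline genes, Dazl, Ddx4, Sycp3 and Mael among them, had enough counts to be tested in this comparison. Their summed level was 0.455 to 0.974 CPM in EpiSC libraries and 0 to 0.782 CPM in DE. In the strain comparison 2 of them could be tested, and Sycp3, a part of the meiotic chromosome axis, was called higher in PWK at a very low level, 0.686 ± 0.191 CPM (SD, n = 3) against 0.093 ± 0.0814 CPM (n = 5) in B6 (log2 change 2.80, SE 0.65). DNA methylation itself was not measured here.

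Genes were compared over the 9 B6 libraries by the root-mean-square difference of log2 levels, each gene centred on its mean in B6 EpiSCs. The genes nearest to Tet1 by this measure were Tmem131 (0.218), Prpf8 (0.219) and Ttll4 (0.236). For Tet2 the nearest were Rce1 (1.02), Gm2606 (1.12) and Fam173a (1.12). The distances for Tet2 were larger, but Tet2 had only 0 to 130 counts in B6 EpiSC libraries, where Tet1 had 5787 to 8820. Log2 levels scatter more at low counts, so the distances of the 2 genes cannot be compared.

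Between strains, Dnmt3a and Tdg were the enzymes called, at a share near that of all genes. In PWK/PhJ against B6 EpiSCs, edgeR called Dnmt3a higher and Tdg lower among 8 enzymes tested, beside 26.5% of 14822 genes (12.0% higher, 14.5% lower). With total library size as the scale the 1781 higher and 2142 lower genes became 2226 and 1708. The groups did not overlap for 2 of the 8, beside 32.1% of all genes. Dnmt3a measured 240, 244 and 237 CPM in the 3 PWK libraries, and 182, 200, 203, 174 and 185 CPM in B6 replicates 1, 2, 4, 44 and 51. The groups did not overlap, though the difference was modest (log2 change 0.36, SE 0.06, edgeR adjusted p = 0.00151). B6.129 F1 libraries lay lower still, at 167, 172 and 164 CPM, so that PWK exceeded F1 by 0.57 on the log2 scale (SE 0.07, adjusted p = 0.000174). PWK against F1 again gave 2 calls among the 8, Dnmt3a higher and Tdg lower (2 without overlap), beside 40.0% of all genes (20.7% higher, 19.4% lower, 62.9% without overlap). Total library size turned these 3067 higher and 2869 lower genes into 3606 and 2180. These comparisons share libraries, B6 or PWK or F1 ones, so their counts are not independent.

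**Figure D5:**
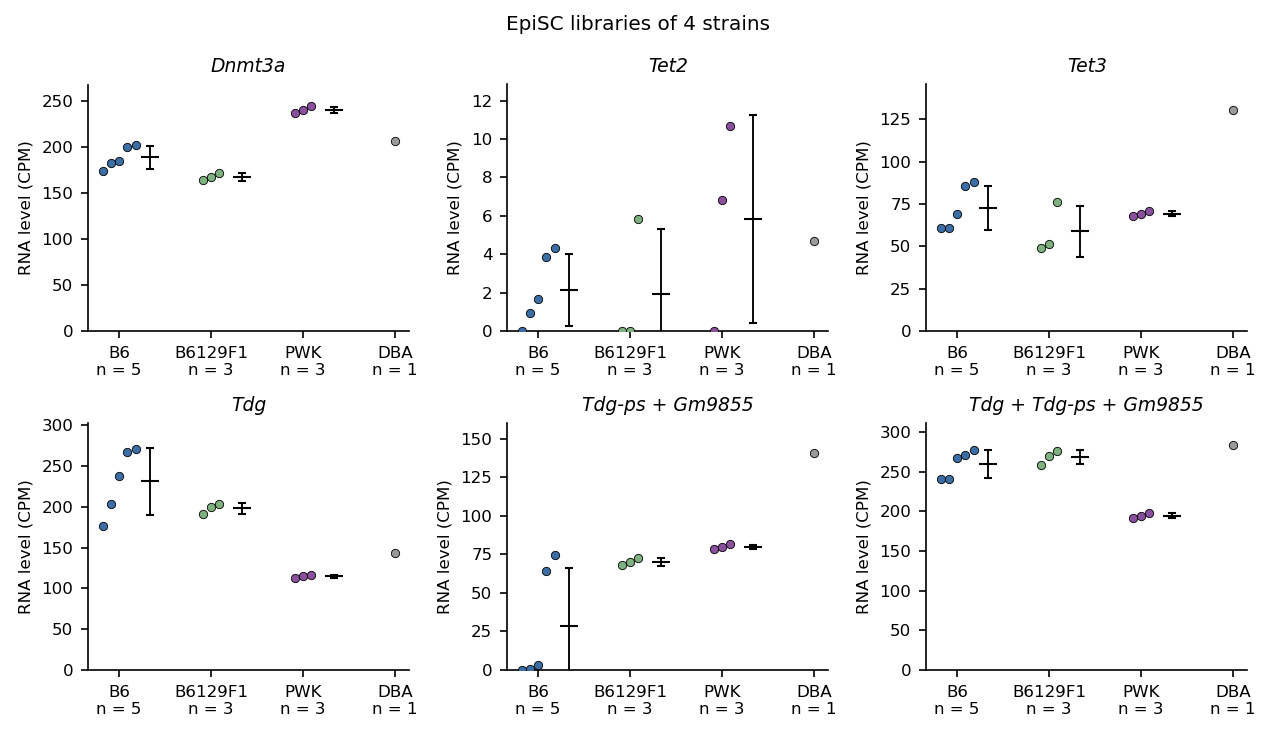
RNA level in CPM (vertical axes, each starting at 0) of Dnmt3a, Tet2, Tet3, Tdg, the summed copies of Tdg, and Tdg with its copies in EpiSC libraries of 4 strains; points are libraries and bars give the mean with its SD. PWK libraries are the highest in Dnmt3a and the lowest in Tdg with its copies (192 to 198 CPM), and DBA (283 CPM) is above the highest B6 library (278 CPM) in that sum.

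Tdg in PWK measured 115, 113 and 117 CPM, against 271, 203, 238, 177 and 267 CPM in B6, and was thus lower in every library (log2 change -1.0, SE 0.13, edgeR adjusted p = 0.000294). The copies differed in the opposite direction, and Tdg-ps had 1170 to 1424 counts in PWK and 0 to 368 in B6. With both copies added, PWK measured 195 ± 3.26 CPM (SD, n = 3) and B6 260 ± 17.6 CPM (n = 5), a smaller fall without overlap (log2 change -0.41, SE 0.07, adjusted p = 0.00121). F1 libraries measured 269 ± 8.96 CPM in the sum (n = 3), which was not called against B6 (log2 change 0.01, SE 0.07, adjusted p = 0.957) and exceeded PWK (log2 change of PWK over F1 -0.42, SE 0.07, adjusted p = 0.00153). In the DBA library Tdg alone stood at 143 CPM, under every B6 library, whereas the sum was 283 CPM, above all of them.

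Another copy behaved in a similar way. Dnmt3c, a rodent duplicate of Dnmt3b that acts in the male germline and was picked out here after its values were seen, had 439 to 542 counts in the 3 PWK libraries. It had 0 to 11 in B6, 0 to 2 in F1 and 0 in DBA libraries (PWK over B6 log2 change 6.66, SE 0.60, adjusted p = 2.40e-05). Its PWK level, 17.7 ± 1.39 CPM (SD, n = 3), was small beside the 1159 to 1381 CPM of Dnmt3b in the same libraries, and of 2 tested peaks within 5 kb of Dnmt3c neither was called. Whether these reads arose from Dnmt3c or from the PWK alleles of Dnmt3b was not tested, and how PWK reads were aligned is not given in the sources used here.

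The other enzymes were not called in PWK. Dnmt1 spanned 310 to 389 CPM over B6, F1 and PWK libraries together, and its log2 change in PWK was 0.07 with a 95% interval from -0.096 to 0.24. Uhrf1 (-0.13, interval -0.38 to 0.12), Dnmt3b (-0.25, interval -0.65 to 0.15), Tet1 (0.27, interval -0.015 to 0.56, adjusted p = 0.145) and Tet3 (-0.07, interval -0.44 to 0.30) did not pass. Tet2 had 0, 185 and 274 counts in the 3 PWK libraries, so its interval (-2.33 to 5.19) bounds little. In F1 against B6 none of the 8 was called by edgeR, and 2.84% of all genes were (1.34% higher, 1.5% lower). Only Dnmt3a had an unadjusted p under 0.05 (log2 change -0.21, SE 0.06, edgeR adjusted p = 0.0803). DESeq2 called Dnmt3a lower (-0.20, adjusted p = 0.0157), and a fit of F1 and B6 libraries alone called no gene at all. The groups did not overlap for 1 enzyme, Dnmt3a, beside 15.3% of all genes.

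Of the partner lists, the DNMT1 partners had 3 of 6 genes lower and none higher in PWK against B6 (median log2 change -0.25): Pcna, the replication clamp, Cdca7 and Uhrf2. S-phase genes had 7 of 22 lower and none higher (median -0.16). Over all genes 26.5% were called in this comparison, 12.0% higher and 14.5% lower. Zfp57 was lower in PWK, at 33.1 ± 3.35 CPM (SD, n = 3) against 68.2 ± 16.1 CPM (n = 5) in B6 (log2 change -1.03, SE 0.18). Against F1 it fell by 1.68 (SE 0.20), and Neil3, a glycosylase, fell by 1.03 (SE 0.19). Gadd45g rose by 2.60 (SE 0.64), Zbtb4 by 1.56 (SE 0.30) and Cxxc4, a CpG-binding protein, by 1.13 (SE 0.21) in PWK against F1. In F1 against B6 no gene of the 7 lists was called, beside 2.84% of all genes.

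The feeder markers moved with strain and their part in these differences was not tested. They summed to 1958 to 2779 CPM in PWK, 124 to 196 CPM in F1 and 1359 CPM in DBA libraries. B6 libraries ranged from 56.3 CPM in replicate 1 to 2527 CPM in replicate 51. Replicate 51, at the PWK level of feeder RNA, had 185 CPM of Dnmt3a and 267 CPM of Tdg with its copies.

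The single DBA library allows no test. Of the 8 enzymes with at least 1 CPM in B6, 4 lay outside the range of the B6 libraries, beside 41.0% of 12727 genes, and 1 was past 2-fold, beside 8.12%. That one was Tet2 (4.67 CPM, B6 mean 2.15). Tet3, at 130 CPM, stood above every other EpiSC library, against 60.8 to 87.8 CPM in B6 and 49.2 to 76.2 CPM in F1 and PWK.

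Accessibility near the enzymes was called in PWK against B6 EpiSCs at 1 higher and 2 lower of 84 tested peaks, 3.57% beside 5.11% of all 137667 (1.42% higher, 3.68% lower). For 19 of the 84 the groups did not overlap (22.6%, beside 25.9% of all peaks). All 3 called peaks belong to Dnmt3a, and none of the 17 tested start peaks was called (beside 2.63% of start peaks of all genes). A peak inside the gene (chr12:3850300-3850550) measured 11.7 and 9.98 CPM in the PWK libraries and 1.55, 1.88, 0.754 and 0.612 CPM in B6 (log2 change 3.10, SE 0.45, adjusted p = 0.000915). A second, near the end of the gene (chr12:3911383-3911615), measured 0.886 and 1.19 CPM in PWK and 3.52 to 7.62 CPM in B6 (log2 change -2.40, SE 0.55, adjusted p = 0.0179). Its call was lost without B6 replicates 1 or 4 or the PWK library with a labelled number (-2.25 to -2.23, adjusted p = 0.0545 to 0.0891).

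The third, downstream of Dnmt3a (chr12:3917832-3918186), measured 2.48 and 1.1 CPM in PWK and 12.2 to 16.6 CPM in B6 (log2 change -3.10, SE 0.38, adjusted p = 0.000233), and 20.7 CPM in DBA. The same site (chr12:3917832-3918160 in the other table) was lower in B6 DE, at 5.89 ± 1.71 CPM against 14.8 ± 1.83 CPM in EpiSCs (log2 change -1.34, SE 0.26), a comparison that uses the same B6 EpiSC libraries. Dnmt3a RNA was higher in PWK and lower in DE. The Tet1 peak that was lost in DE measured 6.02 and 20.2 CPM in the PWK libraries, 8.44 to 12.6 CPM in B6 and 2.49 CPM in DBA, while Tet1 RNA in DBA (295 CPM) was within the B6 range of 214 to 323 CPM. In DBA 8 of 87 peaks of the enzymes with at least 1 CPM in B6 were past 2-fold of the B6 mean, beside 24.7% of 138323 peaks, and 38 were outside the B6 range, beside 46.3%.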

How the data were processed

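RNA and accessibility were taken from 4 tables of raw counts, which the authors deposited as whole numbers per Ensembl gene or per peak; per the file headers and labels they use build mm10. Per the submitters' processing notes, Salmon, featureCounts and DESeq2 were used for RNA and fastp, Bowtie2, MACS2, featureCounts and DESeq2 for ATAC-seq; versions and roles, and whether counting used strand, are not given in the sources used here. Of 30 samples 27 were used; the 3 PWK DE samples were not analysed here, nor were 17 columns of the EpiSC peak table that match no label. A PWK and an F1 RNA column and a PWK ATAC-seq column, whose names match no sample's number, were placed by group only.

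The counts were tested with edgeR 4.0.16 in R 4.3.3 (TMM, filterByExpr, robust quasi-likelihood fit, Benjamini-Hochberg adjustment over all features, threshold 0.05). B6, PWK and F1 EpiSC RNA shared 1 fit. Standard errors are the log2 change divided by the square root of F, and intervals span 95%. On simulated counts with 200 features changed by a log2 change of 1, the test recovered 22% of them for DE RNA, 69% for PWK RNA, 72% for F1 RNA, 66.5% for PWK against F1, 87% for DE peaks and 45% for PWK peaks. The adjustment depends on the share of features that change, and 62% of genes were called in the real DE RNA comparison. These recovered shares therefore do not measure how many changes were missed in the data. Same-numbered EpiSC and DE libraries were checked for shared deviations (correlations of 0.0915 to 0.231 over 4 RNA pairs, -0.00726 to 0.0630 over 3 ATAC pairs), too low in at least 1 pair of each to treat them as pairs. The members, gene lists and tests were chosen with earlier results of these data known. List genes were named when called with a log2 change above 1, up to 3 per list and direction, and peaks as the largest change each way and the most accessible start peak; Uhrf2, Trim28, Dnmt3c, the DNMT1 partners called in PWK and further peaks were chosen after their values were seen. Alternatives were RLE and total-count scaling, other filters, DESeq2 1.42.0, leaving out each library, a replicate block, other peak distances and sets of libraries. Sequences are RefSeq's, build GRCm38.p6.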

Additional observations from a re-analysis of the deposited data

Results flagged for a closer look

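The peak of Tet3 at chr6:83441548-83441802 was set apart by 1 library. Its accessibility was 15.5 CPM in B6 DE replicate 44 and 16.7 to 16.9 CPM in the other 3 DE libraries, and the gap to the nearest of them took 0.846 of the whole range, above Dixon's critical value for 4 libraries. This was 1 of 54 groups of 4 or 5 libraries examined, of which chance sets apart about 1 in 20, and the gap itself is small beside the level.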

How the results depend on the processing

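For DE against EpiSC RNA, 1 enzyme in place of 2 was called higher (Tdg in replicates 1, 4 and 51 alone, otherwise Tet2) with RLE scaling, total library size, no filter on low counts, or either set of replicates alone (chosen after the data were seen), 0 with at least 10 counts in every library, where Tet2 was not tested, and 1 to 2 when each library was left out. The 5 lower calls were 4 to 5 throughout. Of the 81 DE peaks, 15 were higher and 22 lower; with at least 10 counts in every library, which leaves 36 tested, 7 and 9 were. In PWK against B6, 1 higher and 2 lower peaks became 0 and 1 with that filter, 1 lower within 2 kb, 4 lower within 20 kb, and 1 to 3 lower when each library was left out (1 without B6 replicates 1 or 4 or the PWK library with a labelled number). F1 against B6 gave 1 lower enzyme with DESeq2, and PWK against F1 gave 1 to 2 higher when each library was left out (Tet3, 0.51, adjusted p = 0.0338, without F1 replicate 9).

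With each library left out, several changes that had not passed the test took the other sign: PWK Tet3 (-0.12 to 0.0034), F1 Uhrf1 (-0.15 to 0.033) and Tet2 (-8.88 to 0.38), PWK against F1 Dnmt1 (-0.028 to 0.039), Uhrf1 (-0.17 to 0.013), Dnmt3b (-0.15 to 0.091) and Tet1 (-0.038 to 0.13), the DE start peaks of Uhrf1 (first start, -0.15 to 0.085), Dnmt3b (-0.11 to 0.15), Tet2 (-0.29 to 0.018) and Tet3 (-0.10 to 0.29), and the PWK peaks of Dnmt3l (-2.18 to 0.15) and Tdg (-0.0044 to 0.28). So did F1 Tdg summed with its copies (0.0087), PWK against F1 Dnmt3b (0.030) and the Dnmt3b start peak (-0.12) with total library size, PWK against F1 Dnmt1 (-0.010) and Tet1 (-0.0010) with no filter, and the first Uhrf1 start peak (0.0013) with at least 10 counts. PWK accessibility at the most open Tet1 peak took the other sign with total library size (0.060), with at least 10 counts (0.0091) and without single libraries (-0.21 to 0.12), and F1 Tdg with its copies with total library size (-0.012) and without single libraries (-0.021 to 0.061). The cause was not tested.

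A replicate block on the numbers shared by EpiSC and DE left 2 enzymes higher and 5 lower, and gave 11 peaks higher and 16 lower (11 and 20 in the same libraries without it). By deviations, 3 of 4 DE RNA libraries and 2 of 3 ATAC-seq libraries were most like the EpiSC library of their own number, a hint from the data only. Over single enzymes, named genes and named peaks, 1653 alternative values kept direction and side of the threshold, 41 lost it, 11 gained it and 44 changed sign, none of the last being called. Over all genes, F1 against B6 moved: 199 higher and 222 lower became 884 and 1123 with DESeq2, 145 and 146 with no filter, 139 and 231 with total library size, 0 and 0 with those groups alone, and 0 and 0 to 1001 and 951 with single libraries left out. DE against EpiSC RNA gave 4430 and 4307, and 2594 and 3024 in replicates 2 and 44 alone. PWK against B6 gave 1781 and 2142, and 1126 and 1336 without 1 PWK library (similar for the other 2). PWK against B6 peaks went from 1957 and 5073 to 1001 and 2823 without B6 replicate 1, 1004 and 2628 without B6 replicate 4, 1640 and 2944 without the PWK library placed by group only, and 667 and 1443 with at least 10 counts. Depth limits what can be said of Dnmt3l, of Tet2 in EpiSCs and of peaks near 1 CPM.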
